A study of Mus musculus with 12 samples.

Results

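The AP-1 transcription factor genes of airway organoids were examined here, 8 of the 55401 genes in the deposited table, chosen by gene name. They are the Fos family (Fos, Fosb, Fosl1 and Fosl2), the Jun family (Jun, Junb and Jund) and Atf3. Of these 8 genes, 7 reached 10 normalized counts in 6 libraries or more and so were among the 13792 genes tested, and only Jund stayed below that minimum. A normalized count is the number of reads on a gene divided by the size factor of its library.

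Bulk RNA sequencing covered 12 dishes of organoids grown from airway epithelial cells of adult C57BL/6J mice, 6 labelled as ablation and 6 as control. In each of the 45 organoids of an ablation dish, a femtosecond laser removed 10 adjacent cells, control dishes received no laser treatment, and all dishes were harvested 4.5 h later. Both groups carried the same lentiviral construct, a histone 2A-mCherry fusion driven by the p63 promoter, were grown with L-WRN-conditioned medium, epidermal growth factor and the kinase inhibitor Y-27632, and were kept in FluoroBrite DMEM without supplements from 1 h before the treatment. Dishes were numbered 1, 3, 4, 5, 6 and 7, and the ablation and control dish of a number shared passage, culture day and date, so they form 6 pairs. Pairs 1, 3 and 5 make up the first of 2 sets of library numbers, and pairs 4, 6 and 7 the second. Passages ran from P2+14 to P2+16 and culture days from 14 to 20. Pairs 1 and 3 shared passage P2+14, pairs 4 and 5 P2+15, and pairs 6 and 7 P2+16. In each of these couples, the dates lay as many days apart as the culture days, as for a common culture start. The tests treated the 6 pairs as independent, so their p-values do not allow for a shared start. The titles of controls 4, 6 and 7 contain the word ablation, whereas their treatment label says control and their numbers end in C, as those of the other controls do. The treatment label was followed, and every sign reported for the second library set depends on it. The labels do not say that dishes came from separate animals, so p-values measure the spread between dishes. RNA was taken from whole organoids, of which the ablated cells are a small part, and fewer cells of a type and less RNA per cell cannot be told apart in such samples.

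Libraries held between 27297950 and 28504390 normalized counts, and mitochondrial genes took 1.29% to 1.79% of them. The 5 basal cell markers Trp63, Krt5, Krt14, Krt15 and Ngfr were all present, summing to between 464607 and 608529 normalized counts after ablation and between 460933 and 594743 in the control. Of 4 secretory markers, Cyp2f2 was abundant, while Scgb1a1, the defining club cell product, reached at most 9.65. The summed levels of 4 multiciliated, 4 fibroblast, 4 endothelial and 4 alveolar type II markers did not exceed 58.3, 48.3, 16.4 and 7.01, with Sftpc, Sftpb and Kdr at 0 in all libraries. The 4 immune markers summed to 121 to 157 after ablation and 104 to 175 in the control, mostly Cd68, with Cd3e at most 0.975.

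AP-1 is a dimer of leucine zipper proteins. Jun proteins can pair with each other or with Fos proteins, whereas Fos proteins need a Jun partner to bind DNA, and Atf3 joins the same network by pairing with Jun proteins. The dimers bind the TPA response element (TRE) or the related cyclic AMP response element (CRE). In epithelia, Fos, Jun and Atf3 are known as immediate early genes that are transcribed within minutes of growth factor stimulation, stress or wounding, and their RNAs are short-lived. Fosl1 and Fosl2 lack the strong activation domain of Fos and are typically induced later.

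Of the members searched, only Fos, Jun and Atf3 held a match to a motif, and the sequences upstream of these 3 members are shown. They are the 150 bases before the RefSeq start, read 5′ to 3′ on the strand of the gene (GRCm38.p6), with the matches to TGACGT, to TGACATCA and to the MEF2 site in capitals. Fos lies at chr12:85473740-85473889 on the plus strand, Jun at chr4:95052223-95052372 on the minus strand, and Atf3 at chr1:191183334-191183483 on the minus strand, a start inside the longer span that GENCODE gives for Atf3.

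Fos: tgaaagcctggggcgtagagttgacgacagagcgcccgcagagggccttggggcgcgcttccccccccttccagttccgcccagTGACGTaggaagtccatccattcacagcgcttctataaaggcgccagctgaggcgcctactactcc
Jun: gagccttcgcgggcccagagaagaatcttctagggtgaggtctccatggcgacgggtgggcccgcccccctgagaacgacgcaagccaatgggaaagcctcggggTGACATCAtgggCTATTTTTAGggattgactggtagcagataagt
Atf3: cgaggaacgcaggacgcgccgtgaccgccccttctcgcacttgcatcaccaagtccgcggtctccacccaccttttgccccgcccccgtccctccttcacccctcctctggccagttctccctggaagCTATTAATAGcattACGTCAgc

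The search covered 250 bases before the start on both strands, for the 7 members in the RefSeq promoter table (Fosl1 had no entry). For Jund this window ended at 70697738 on chromosome 8, upstream of the GENCODE start at 70698949. For Fosl2 it began at 32136222 on chromosome 5, inside the GENCODE span that starts at 32135801. Fos held the core TGACGT of the CRE at 66 to 61 bases before the start and the TATA box letters TATAAA at 33 to 28 bases. Jun held TGACATCA, a variant of the TRE, at 45 to 38 bases and a MEF2 site, CTATTTTTAG, at 33 to 24 bases. Atf3 held a MEF2 site, CTATTAATAG, at 22 to 13 bases and the same CRE core as Fos on the opposite strand (ACGTCA) at 8 to 3 bases. No match to the TRE TGACTCA, to the full CRE TGACGTCA (which contains the core) or to the CArG box was found in these windows for any of the 7 members. Fosb, Fosl2, Junb and Jund held no match to any of the motifs searched. Among 32536 windows of the same length in that table, TGACGT occurred in 6.50%, TGACATCA in 2.84%, a MEF2 site in 2.89%, TATAAA in 12.3%, TGACTCA in 4.45%, TGACGTCA in 1.56% and the CArG box in 1.48%. These matches describe letters in the window. Sites farther upstream were not searched, and no binding was measured.

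Per kilobase of exon, Junb had the highest listed level of the AP-1 genes. Over all 12 libraries it averaged 2897 normalized counts per kb, which was 49.2% of the sum over the 8 genes. This sum and the shares below take Jund as listed, near 0, which was not read as a level of its RNA. Jun followed with 1126 and Atf3 with 1055 normalized counts per kb, and these neighbours in the order overlapped in their ranges over libraries. Fosl2 averaged 534, Fos 143 and Fosl1 119 normalized counts per kb, and the range of Fosl1 over libraries covered that of Fos. Fosb was far lower, at 7.33, and Jund was listed at 1.68. The Jun family held 67.2% ± 4.35 of the per-kb sum after ablation and 70.6% ± 3.47 in the control (SD, n = 6 each). The Fos family held 13.9% ± 1.04 and 13.3% ± 0.908, and Atf3 18.9% ± 4.16 and 16.1% ± 2.75, so for each of the 3 shares the group means differed by less than the larger SD. Within pairs, the Jun family share was lower after ablation in 5 of 6 pairs, the Atf3 share higher in 5 of 6 and the Fos family share higher in 4 of 6. The share of Junb alone was 47.3% after ablation (41.0% to 52.7%) and 52.1% in the control (47.1% to 59.8%), ranges that overlap, and it was lower after ablation in 6 of 6 pairs. A share falls when the other members rise more, and the counts of Junb itself were higher after ablation in 3 of 6 pairs.

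**Figure D1:**
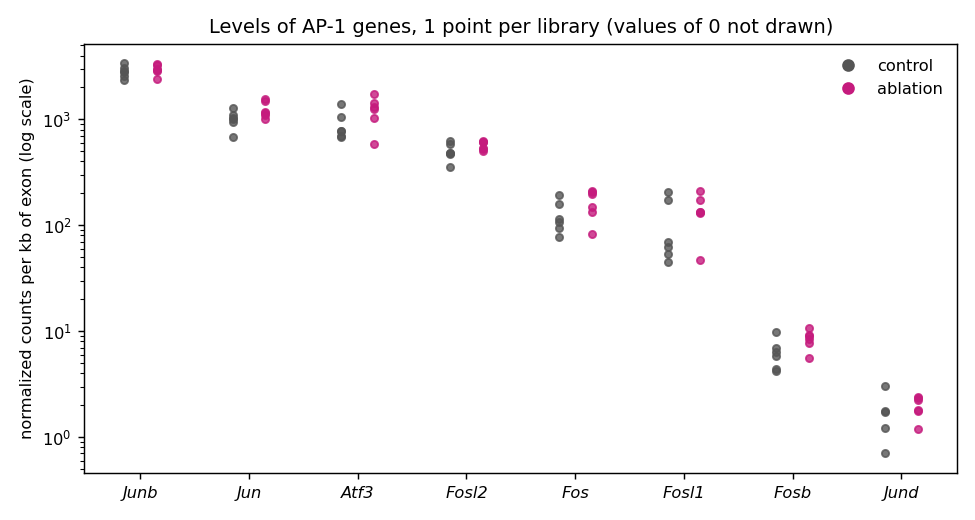
Levels of the 8 AP-1 genes in normalized counts per kb of exon (log axis), 1 point per library, control and ablation side by side (values of 0 are not drawn). Junb (mean 2897) lies above Jun and Atf3 (1126 and 1055), Fosl2 is at 534, Fos and Fosl1 near 143 and 119, Fosb at 7.33, and Jund at the bottom.

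The comparison of ablation with control asks which AP-1 genes differ in RNA level 4.5 h after the removal of 10 cells per organoid. The mean log2 fold change was above 0 for all 7 tested members, with a median of 0.40 against -0.0036 over all 13792 genes, 48.5% of which were higher after ablation. In the model with condition and library set, limma called 0 of the 7 members at an adjusted p-value under 0.05, as for all genes (0%), while 1 member had an unadjusted p-value under 0.05 and was higher, against 7.85% of all genes in either direction and 4.15% higher. With the pair as the second factor instead (paired model), 1 of the 7 members passed, Jun, against 1.09% of all genes (0.674% passed and were higher). At an unadjusted p-value under 0.05, 4 of the 7 members stood in the paired model (Jun, Fosb, Fosl2 and Atf3, all higher), against 17.6% of all genes in either direction and 8.78% higher. edgeR, run on the whole reads recovered from 9 libraries, called 0 of 7, also at an unadjusted p-value under 0.05.

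Jun, the founding AP-1 subunit and a target of JNK kinases, rose after ablation in the paired model. Its level (ENSMUSG00000052684.4, chromosome 4 from 95049034 to 95052222, minus strand) had a lowest value of 3217, a median of 3715 and a highest value of 4942 normalized counts after ablation, against 2160, 3261 and 4058 in the control. The groups overlapped, with 2 of 6 ablation libraries above every control, but within each of the 6 pairs the ablation dish was the higher one (6 of 6 pairs, as for 5.17% of all genes). The means were 3969 ± 700 after ablation and 3213 ± 629 in the control (SD, n = 6 each). This was a 1.24-fold difference on the log2(value + 1) scale, with a 95% interval of 1.14 to 1.35 in the paired model and 1.01 to 1.53 in the library set model. On the log2 scale this was 0.31 ± 0.055 (standard error, paired model), and limma gave adjusted p-values of 0.0209 (paired) and 0.629 (library set model). Pair by pair, the log2 differences were 0.22, 0.57, 0.48, 0.22, 0.23 and 0.15 for pairs 1, 3, 4, 5, 6 and 7, so pairs 3 and 4 rose most. Left out in turn, each pair but the fourth kept Jun under the threshold, and without pair 4 the paired adjusted p-value was 0.104. The libraries of pair 4 were also the least alike of a pair in their deviations from their groups (r = 0.21 across genes). The title of control 4 contains the word ablation. With plain eBayes in place of the trended, robust variances, the paired adjusted p-value of Jun was 0.163. Leaving out single libraries in the library set model moved the log2 value to between 0.21 (without control 3) and 0.41.

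Junb, a Jun protein that often restrains the activity of Jun, differed little. It had 5357 ± 586 normalized counts after ablation and 5123 ± 644 in the control (ENSMUSG00000052837.7, chromosome 8 from 84976910 to 84978718, minus strand). The libraries ran from 4386 to 6029 (median 5344) after ablation and from 4245 to 6090 (median 5103) in the control, almost the same range. The difference was 1.05-fold (95% interval 0.959 to 1.14, paired model), with adjusted p-values of 0.590 (paired) and 0.879 (library set model). Only 3 of 6 pairs were higher after ablation, and these were exactly the pairs of the second library set.

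Jund, the Jun gene known for broad, steady expression in many tissues, was listed near 0 in all 12 libraries. Its values ran from 1.97 to 3.96 normalized counts after ablation (median 3.38) and from 0 in control 1, a zero that allows up to 3 counts, to 5.03 in control 4 (median 2.46). The groups overlapped, the 2-sided exact permutation test of 6 against 6 libraries gave p = 0.212 and the exact sign-flip test over pairs p = 0.281. Listed values were also low for mitochondrial mt-Co2 and mt-Co3, at most 42.5 and 66.3 beside a mean of 137503 for mt-Co1, so the entry for Jund was not read as a level of its RNA. Of the 75-base words in Jund transcripts, 45.9% also occur on the opposite strand in other genes. The gene Gm11175, antisense to Jund, was listed at a mean of 1.16.

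Fos, the prototype of the family and a serum-induced immediate early gene, had 384 ± 118 normalized counts after ablation and 291 ± 101 in the control (SD, n = 6; ENSMUSG00000021250.13, chromosome 12 from 85473890 to 85477273, plus strand). The ablation libraries ran from 196 to 495 (median 408) and the controls from 182 to 453 (median 260). Ablation 4, 5 and 6 lay above every control, and dishes 1 of both groups were the lowest libraries. The 1.32-fold difference had a 95% interval of 0.994 to 1.75 in the paired model and adjusted p-values of 0.292 (paired) and 0.735 (library set model).

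Fosb, an activity-induced paralog with the lowest level of the Fos family, had 52.6 ± 10.5 and 39.0 ± 12.8 normalized counts after ablation and in the control (ENSMUSG00000003545.3, chromosome 7 from 19302696 to 19310051, minus strand). Values ran from 35.1 to 66.3 (median 54.4) and from 26.1 to 61.3 (median 38.0). The groups overlapped, and 5 of 6 pairs were higher after ablation, the exception being pair 5. At least 5 of 6 pairs were higher for 17.9% of all genes. The fold change was 1.37 (95% interval 1.07 to 1.76, paired), with adjusted p-values of 0.185 (paired) and 0.635 (library set model).

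Fosl1, the gene of the Fos protein FRA1 that is known from migrating and squamous epithelial cells, varied most between libraries, 4.72-fold from the lowest to the highest. It had 280 ± 111 normalized counts after ablation (95.5 to 429, median 269) and 205 ± 140 in the control (90.7 to 416, median 134; ENSMUSG00000024912.6, chromosome 19 from 5447547 to 5455946, plus strand). Control 3 and control 5 were as high as most ablation libraries, while the other 4 controls lay below 5 of the 6 ablation libraries. The fold change of 1.49 had a 95% interval of 0.915 to 2.41 in the paired model and adjusted p-values of 0.369 (paired) and 0.768 (library set model). Its log2 value of 0.57 moved to 0.91 without ablation 1, to 0.34 without control 1, to 0.35 without pair 6 and to 0.29 in edgeR on 9 libraries. Its locus overlaps Ccdc85b on the other strand, and 50.2% of its 75-base words occur also on the opposite strand in other genes. The sources used here do not give the strand setting of the read counting. Ccdc85b itself was listed at 264 to 377 normalized counts over all libraries.

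Fosl2, the gene of FRA2 and the most abundant Fos family gene per kb, had 5482 ± 517 normalized counts after ablation (4834 to 6012, median 5513) and 4850 ± 915 in the control (3462 to 6056, median 4666; ENSMUSG00000029135.10, chromosome 5 from 32135801 to 32157842, plus strand). The ablation libraries lay within the range of the controls, and 5 of 6 pairs were higher after ablation (at least 5 of 6 for 17.9% of all genes). The 1.14-fold difference had a 95% interval of 1.05 to 1.25 in the paired model, with adjusted p-values of 0.123 (paired) and 0.707 (library set model).

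Atf3, a stress-induced member of the ATF/CREB family, had 2616 ± 835 normalized counts after ablation (1248 to 3722, median 2741) and 1927 ± 604 in the control (1457 to 3015, median 1671; ENSMUSG00000026628.13, chromosome 1 from 191170296 to 191218039, minus strand). Ablation 1 was the lowest of all 12 libraries, and ablation 4 and 5 were above every control. Of the 6 pairs, 5 were higher after ablation (at least 5 of 6 for 17.9% of all genes). The fold change was 1.33 (95% interval 1.00 to 1.78, paired), with adjusted p-values of 0.279 (paired) and 0.707 (library set model).

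**Figure D2:**
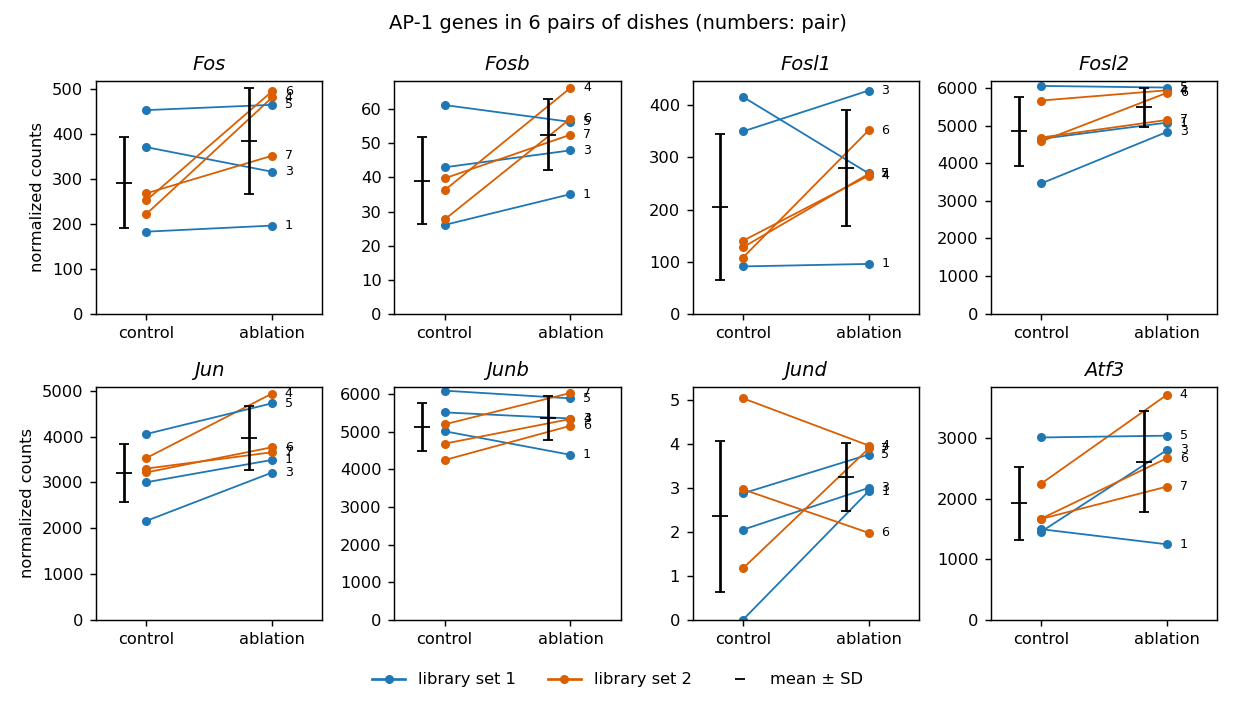
Normalized counts of each AP-1 gene in the control and ablation dish of every pair (numbers), joined by a line, coloured by library set; black bars give the mean ± SD of each group (n = 6), and axes start at 0. All 6 lines of Jun slope upward, whereas those of Fos and Fosl1 slope steeply upward for pairs 4, 6 and 7 and vary in direction for pairs 1, 3 and 5.

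The responses of the members were compared between the library sets, and no difference between the sets passed its test. In pairs 4, 6 and 7, all 7 tested members were higher after ablation in every pair, which was so for 17.5% of all genes taken singly. In the first set, 5 of the 7 members were higher in pair 1, 5 in pair 3 and 3 in pair 5, and among the members only Jun was higher in all 3 of these pairs, against 17.9% of all genes. Fosl1 differed within pairs by 0.92, 1.70 and 1.07 on the log2 scale in pairs 4, 6 and 7, and by 0.07, 0.29 and -0.63 in pairs 1, 3 and 5. Fos differed by 1.12, 0.97 and 0.39 in pairs 4, 6 and 7, and by 0.10, -0.23 and 0.04 in pairs 1, 3 and 5. The values of the second set lie above those of the first set without overlap for both genes.

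Junb showed the same order at a smaller size, with log2 differences of 0.19, 0.28 and 0.21 in pairs 4, 6 and 7 and of -0.19, -0.04 and -0.05 in pairs 1, 3 and 5. Fosb had mean differences of 0.76 in the second and 0.15 in the first set, and Atf3 of 0.60 and 0.23. Jun (0.29 and 0.34) and Fosl2 (0.19 and 0.20) had nearly equal mean differences in both sets.

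The difference between the sets was tested itself, as an interaction of condition and library set with the pair as a term in limma. It was 1.32 ± 0.263 (standard error) for Fosl1, 0.86 ± 0.185 for Fos and 0.32 ± 0.0734 for Junb on the log2 scale, with adjusted p-values of 0.252, 0.267 and 0.288. Thus 0 of 7 members passed, against 0.00725% of all genes, while these 3 of 7 had an unadjusted p-value under 0.05, all with the higher response in the second set, against 7.88% of all genes in either direction and 3.69% in this one. With every gene that had any count in the test, Fosl1 and Fos passed, but the share of all genes passing in that setting is not reported here. Adjusted p-values were between 0.647 and 0.982 for the other 4 members. Without the pair as a term they were 0.999 for all 7.

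Within the second set alone, the paired model called 3 of the 7 members, all higher, against 0.79% of all genes (0.544% higher). These were Fosl1 (log2 fold change 1.23, adjusted p = 0.0114 from limma), Fos (0.83, adjusted p = 0.0264) and Atf3 (0.60, adjusted p = 0.0105). Jun (0.29, adjusted p = 0.102) and Junb (0.23, adjusted p = 0.0956) missed the threshold there. Within the first set, limma called 0 of 7 members, against 0.116% of all genes, with Jun nearest (0.34, adjusted p = 0.110). Pair 4 of the second and pair 5 of the first set share passage P2+15, and the differences of Fosl1 (0.92 and -0.63) and Fos (1.12 and 0.04) were unlike in them, with 1 pair each and no test. The other pairs of the first set are of earlier and those of the second set of later passage, so that set and passage cannot be told apart there. The second set is the one whose controls carry the word ablation in their titles.

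**Figure D3:**
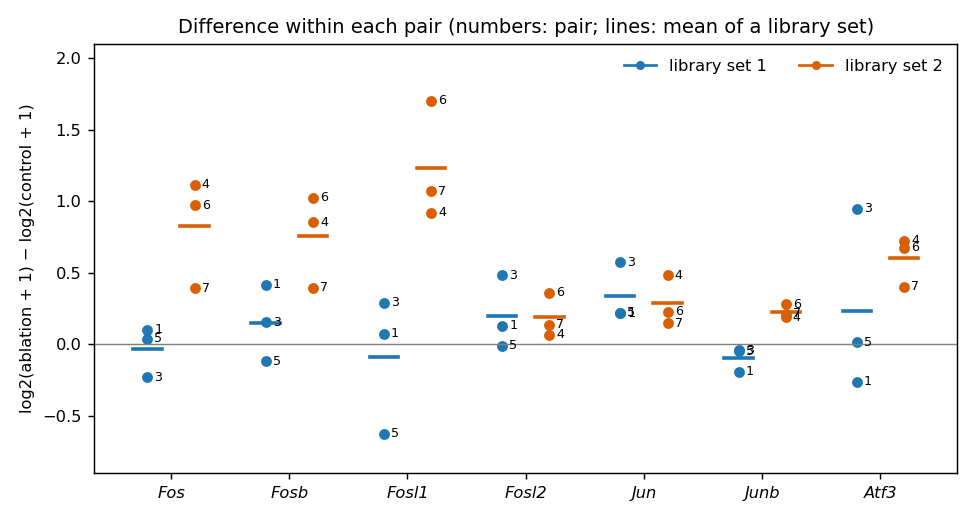
Difference of log2(normalized count + 1) between the ablation and control dish of each pair for the 7 tested AP-1 genes, with pair numbers, colours for the library sets and a line at the mean of each set. For Fos, Fosl1 and Junb all 3 points of the second set lie above those of the first set, while the set means of Jun (0.34 and 0.29) and Fosl2 (0.20 and 0.19) nearly coincide.

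Differences between pairs, whatever the treatment, passed about as often among the members as among all genes. In the F-test of the pair in limma, 2 of 7 members passed, Jun (adjusted p = 0.00177) and Fosl2 (adjusted p = 0.0121), against 29.6% of all genes, and 0 passed with plain eBayes. Adjusted p-values were between 0.0603 and 0.178 for the other 5 members. Means of the pairs ranged over 0.73 on the log2 scale for Jun, over 0.56 for Fosl2 and over 2.05 for Fosl1, whose adjusted p-value was 0.111. Both dishes of pair 1 lay below the mean of their group for all 7 members, and both dishes of pair 5 above it for all 7. Ablation 4 was also above its group mean in all 7 members, whereas control 4 was so for 3 of 7. Between the library sets, the pair means of the 7 members differed by -0.27 to 0.16 on the log2 scale, and limma called 0 of 7, with 0 at an unadjusted p-value under 0.05, against 0% and 9.38% of all genes.

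The within-pair differences of the members were compared with each other over the 6 pairs, in 21 relations. None passed the adjustment over the 21 relations in the exact permutation test (lowest adjusted p = 0.272 for Pearson's r), and 3 had p under 0.05 before it. The pairs fall apart by library set for Fos, Fosl1 and Junb, with only 3 pairs in each set, so relations that involve these genes could not be tested within a set and their pooled values are not given. Among Jun, Fosl2, Fosb and Atf3, the closest relation was that of Jun and Atf3, with r = 0.68 (exact p = 0.132, adjusted p = 0.416) and rho = 0.83 (exact p = 0.0583, adjusted p = 0.408). Without the 2 pairs farthest from the median of Jun, r was -0.20, so this relation rests on those pairs.

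Genes around AP-1 were described in 4 lists. Of 12 genes of proteins that pair or compete with Fos and Jun proteins, 10 were tested, and their median log2 fold change was 0.05. In the paired model 1 of the 10 rose, Jdp2, a Jun dimerization partner that represses AP-1 sites, while the library set model called 0. At an unadjusted p-value under 0.05 stood 1 gene (library set) and 3 genes (paired), against 7.85% and 17.6% of all genes. Jdp2 had 2176 to 2692 normalized counts after ablation and 1769 to 2503 in the control. These ranges overlap, but the ablation dish was higher in 6 of 6 pairs, with means of 2443 ± 210 and 2055 ± 269, a 1.19-fold difference and adjusted p-values of 0.0245 (paired) and 0.537 (library set model). The most abundant gene of the list, the small Maf gene Mafg, had 2703 ± 349 and 2519 ± 223 normalized counts, with adjusted p = 0.275 (paired model).

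Of 17 kinases, promoter-bound factors and ubiquitin ligases that act on Fos and Jun, all were tested and 0 passed in either limma model, with 0 (library set) and 1 (paired) at an unadjusted p-value under 0.05, below the shares of all genes (7.85% and 17.6%). Their median log2 fold change was -0.0073, and single values ran from -0.17 to 0.15.

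Of 18 textbook AP-1 target genes in epithelia, 14 were tested and 0 passed in either limma model, with 0 (library set) and 1 (paired) at an unadjusted p-value under 0.05, again below 7.85% and 17.6% of all genes. Their median log2 fold change was 0.06. Ccnd1, the cyclin D1 gene and the most abundant of them, had 16388 ± 2761 and 17116 ± 3005 normalized counts, with adjusted p = 0.652 (paired model). The gene with the unadjusted p-value under 0.05 was Hbegf, which encodes an epidermal growth factor receptor ligand and is named here after its value was seen. It was higher in 6 of 6 pairs, 1355 ± 380 against 1095 ± 361 normalized counts, with adjusted p = 0.0809 (paired model).

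Of 16 other immediate early genes, 15 were tested, with a median log2 fold change of 0.15. The library set model called 0 (1 at an unadjusted p-value under 0.05, against 7.85% of all genes), and the paired model called 2, both higher (5 at an unadjusted p-value under 0.05, against 17.6%). Ier3, an early response gene linked to cell survival, had 1090 ± 228 against 867 ± 196 normalized counts (1.26-fold, adjusted p = 0.0127 paired and 0.690 in the library set model). Klf10, a TGF-beta-induced repressor, had 2390 ± 315 against 2045 ± 215 (1.16-fold, adjusted p = 0.0352 and 0.619). Both were higher in 6 of 6 pairs. The most abundant gene of the list, the epithelial factor Klf4, had 19413 ± 2034 against 17901 ± 2185 normalized counts and adjusted p = 0.293 (paired model). Without pair 4, the paired model called none of Jun, Jdp2, Ier3 and Klf10. It also called no dimer partner gene without pair 3, 6 or 7, and 1 of the other immediate early genes without pair 1, 3 or 5.

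**Figure D4:**
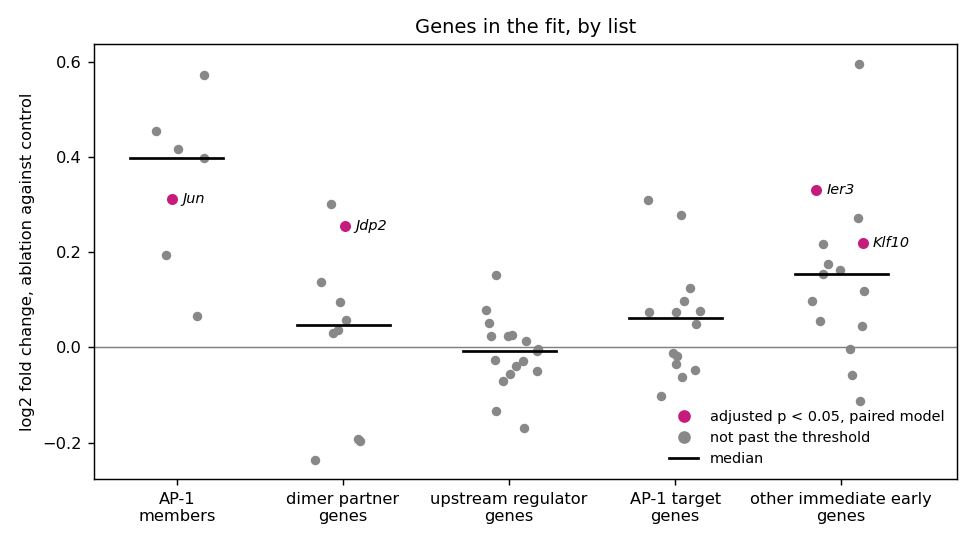
Log2 fold change (ablation against control) of every tested gene of the AP-1 set and of the 4 lists, 1 point per gene, with a line at the median; coloured points are under 0.05 after adjustment in the paired model. The 7 AP-1 genes lie between 0.07 and 0.57, and the medians of the other lists are 0.05, -0.0073, 0.06 and 0.15.

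In the second library set, some genes of these lists passed as well, against 0.79% of all genes (0.544% passed and were higher), and they are named here after their values were seen. Of the dimer partner genes, 2 passed, Maff (log2 fold change 0.66, adjusted p = 0.0187 from limma in the paired model) and Jdp2 (0.34, adjusted p = 0.0273). Of the target genes, 2 passed, Hbegf (0.54, adjusted p = 0.00841) and Plaur, the urokinase receptor gene (0.53, adjusted p = 0.0158). Of the other immediate early genes, 3 passed, Myc (0.38, adjusted p = 0.0158), Ier3 (0.43, adjusted p = 0.0241) and Ier2 (0.36, adjusted p = 0.0350). In the first set, 0 genes of the 4 lists passed. The difference between the sets was tested for these 7 genes in the interaction model and passed for none, with adjusted p-values between 0.218 (Myc) and 0.633 (Jdp2).

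For each tested member, the 2 other genes with the most similar log2 values over the 12 libraries were read out by Pearson's r, as a description without a test. Libraries share pairs and scaling in these values. Jun was nearest to Ist1 (r = 0.97), a gene of endosomal sorting, and to the histone gene Hist3h2a (r = 0.96). Fosl2 was also nearest to Ist1 (r = 0.94), followed by the deubiquitinase gene Otud7b (r = 0.93). For Junb the nearest genes were Phlda1 (r = 0.90) and Tead4 (r = 0.88), a partner factor of YAP. Phlda1 (r = 0.94) was also among the nearest to Fosb, beside the pseudokinase gene Trib1 (r = 0.95). Fos was nearest to Zfp719 (r = 0.91) and Ier3 (r = 0.90), Fosl1 to Rpp38 (r = 0.94) and the cationic amino acid transporter gene Slc7a1 (r = 0.94), and Atf3 to Kat5 (r = 0.94), which encodes an acetyltransferase, and Rbm18 (r = 0.94).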

How the data were processed

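Poly(A) RNA of 12 libraries was sequenced as stranded paired-end reads of 75 bases. Per the study's methods, the authors ran the nf-core RNA-seq pipeline with the GENCODE annotation (GRCm38.p6) and DESeq2 with condition and an unnamed batch as factors, outlier and independent filtering off. The signal values used here are the normalized counts as deposited, which the authors made by dividing read counts by 1 size factor per library. The deposited columns with the authors' own fold changes and p-values were not used. The gene length deposited beside them, another value by the authors, was used for values per kb.

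The members and lists were chosen with earlier results of these data known, and members were matched by gene name. Named from the lists are the genes past the threshold in either model and the gene with the highest mean of each list (for the upstream regulators it is not reported here), and for each member the 2 most similar genes. log2(value + 1) was fitted over 13792 genes in limma 3.58.1 (R 4.3.3) with condition and library set, taken as the batch, eBayes with trend and robust estimation, and Benjamini-Hochberg adjustment at a threshold of 0.05. The paired model (replicate block) has the pair in place of the library set. The numbers pair the samples, as a number shares passage, culture day and date in the titles, and in each pair both libraries deviated together from their groups (r from 0.21 to 0.62 across genes, lowest in pair 4, the only pair whose ablation library correlated better with a control of another number). Values were whole multiples of 1 step in 100% of cases within a tolerance of 0.1. For 9 libraries this gave back 23631212 to 29775699 reads, on which edgeR 4.0.16 tested 13634 genes and called 0. The steps of ablation 3, ablation 4 and control 4 were too near 1 to be accepted. In simulated data, 200 of 13792 genes were changed 2-fold and every gene had the same dispersion. The library set model recovered 91% with 0% false calls, the paired model 95.5% with 5.45% and the interaction 63.5% with 6.62%. The members differed between ablation and control by 1.05-fold (Junb) to 1.49-fold (Fosl1), and the recovery of such smaller changes was not simulated. Exact tests and correlations were run with SciPy 1.17.1. Alternatives were other pseudocounts (0.5 and 5), no count minimum, other scalings, plain eBayes, each library set alone, and each library or pair left out.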

Additional observations from a re-analysis of the deposited data

Results flagged for a closer look

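For Junb, the response in the second library set exceeded that in the first by 0.32 on the log2 scale. It stands out because all 3 pairs of the first set were lower after ablation (by 0.19, 0.04 and 0.05) and all 3 pairs of the second set higher (0.19, 0.28 and 0.21). The interaction test gave an adjusted p-value of 0.288 in limma, above the threshold. No library lay far from the others of its group for any member by Dixon's test.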

How the results depend on the processing

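The mean fold changes of members fell below 0 only in the first library set alone, with -0.030 for Fos, -0.087 for Fosl1 and -0.10 for Junb; many other settings leave a fold change as it is by construction. In the library set model, limma called 3 genes of all genes without the count minimum, 3 with equal library totals and 0 to 2 with a library left out (2 without ablation 7 and 1 without control 4). The paired model (replicate block) called 150 genes, 356 without the count minimum, 16 in the first and 109 in the second set alone, 176, 90, 8, 77, 106 and 140 without pairs 1, 3, 4, 5, 6 and 7, and 0 with plain eBayes (no trend, not robust). Over all fits that left out a library or pair, the count was 0 to 176 for all genes, 0 to 1 for the members, 0 to 1 for the dimer partners and 0 to 2 for the other immediate early genes. For the members, the count in the paired model was 1, 1 without the minimum and 3 in the second set. The dimer partners had 1, 1 and 2, the targets 0, 2 and 2, and the other immediate early genes 2, 3 and 3. Without the minimum, 2 members passed the interaction test, and the share of all genes passing there is not reported here. With plain eBayes, 0 members differed between pairs in the F-test, against 2. Without the minimum, Junb passed that F-test as well (adjusted p = 0.0142, limma), again with no share of all genes given. The block changed no other call. The cause of these changes was not tested. Jund was listed at 0 to 5.03 normalized counts, near the 3 counts that a value of 0 allows. No difference could be detected at values this low, which were not read as a level of its RNA.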
